A study of Mus musculus with 4 samples.

Results

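The 8 genes described here carry the steps that set the direction of sugar flow in the liver. They are G6pc, Slc37a4 and Slc2a2 (release of glucose), Pck1, Pcx and Fbp1 (glucose production), Pklr (the last step of glycolysis) and Khk (entry of fructose). They were chosen by name, and all 8 were among the 8797 genes listed for each mouse. A B6-allele frequency, which is the share of B6 reads among those that could be told apart by allele, was given in all 4 mice for 4 of them (G6pc, Pck1, Khk and Slc2a2), out of 3632 genes with one. The samples were pieces of liver from 4 female F1 mice at 5 months of age. The reciprocal crosses, MSM mother x B6 father and B6 mother x MSM father, gave 2 mice each. B6 (C57BL/6J) and MSM (MSM/Ms) are inbred strains of different subspecies, so every mouse carried a chromosome set of each strain and the crosses differed in which parent gave which set. No mouse carried a transgene or received a treatment by the labels, and no animal of a pure strain was included. The sources used here do not give the feeding state or the hour at which the livers were taken.

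The liver takes up glucose after a meal and releases it between meals. Gluconeogenesis builds glucose from lactate, glycerol and amino acids: Pcx turns pyruvate into oxaloacetate, Pck1 turns oxaloacetate into phosphoenolpyruvate, Fbp1 removes a phosphate from fructose bisphosphate, and G6pc frees glucose from glucose 6-phosphate, which Slc37a4 carries into the endoplasmic reticulum. Glucagon, glucocorticoids and fasting are known to raise Pck1 and G6pc transcription and insulin to lower it, whereas Pklr is known for its induction by carbohydrate feeding.

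Pck1 and G6pc are shown with the 250 bases upstream of their RefSeq starts, since they were the most variable members with B6-allele frequencies that differed little between mice. The sequences come from RefSeq (GRCm38.p6, plus strand). The Pck1 window is chr2:173152823-173153072 and the G6pc window is chr11:101367466-101367715. Capitals mark matches, on either strand, to any of the 6 motifs searched. ACGTCA was searched as the half-site of the cAMP response element. GTAAACA stands for the forkhead core, and CAAAACA for the forkhead core of insulin response elements. GTTAAT was searched by its letters alone. CACGTG is the palindromic E-box, and for the core promoter TATAAA was used.
Pck1: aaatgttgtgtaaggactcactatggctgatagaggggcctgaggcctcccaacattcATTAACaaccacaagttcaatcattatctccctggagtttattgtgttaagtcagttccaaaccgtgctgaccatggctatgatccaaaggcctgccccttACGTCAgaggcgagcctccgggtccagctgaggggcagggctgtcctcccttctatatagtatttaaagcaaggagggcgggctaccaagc
G6pc: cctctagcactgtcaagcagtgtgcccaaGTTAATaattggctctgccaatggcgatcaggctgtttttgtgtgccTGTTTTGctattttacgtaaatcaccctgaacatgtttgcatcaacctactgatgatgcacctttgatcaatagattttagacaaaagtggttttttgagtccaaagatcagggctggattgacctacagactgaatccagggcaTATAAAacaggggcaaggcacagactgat

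In the Pck1 window, ACGTCA stood at -91 to -86 from the start and GTTAAT, on the minus strand, at -192 to -187. The G6pc window held GTTAAT at -221 to -216, CAAAACA on the minus strand at -174 to -168, and TATAAA at -29 to -24. GTTAAT was thus the motif that the windows shared. Among 32851 promoter windows of the same length, 6.43% held GTTAAT, 6.47% ACGTCA, 5.56% CAAAACA and 12.4% TATAAA. Of the other members, Khk had GTTAAT and CACGTG, Slc37a4 had ACGTCA and, at another start, TATAAA, Pklr had TATAAA and Pcx had CACGTG. No match was found for Fbp1 and Slc2a2. CACGTG was found in 6.02% of windows and GTAAACA, which no member had, in 3.17%. A match describes these letters of the B6 reference only.

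Expression was deposited as FPKM, the fragments mapped to a gene scaled to its length and to the fragments mapped in the library. No read counts per gene come with the values, and the authors give the sequencing depth only as a range over the libraries. FPKM summed to 529024 to 671875 per mouse, with medians of 11.2 to 11.7. Of the hepatocyte markers, 5 of 6 were among the genes analysed, and their summed FPKM was 17366 and 16701 in the MSM mother x B6 father mice and 12184 and 15424 in the reciprocal ones. None of the markers of kidney tubule, another tissue that makes glucose, were among the genes analysed (0 of 6), and none of the adipocyte markers were (0 of 6). Markers of Kupffer cells (4 of 6 analysed) summed to 110 and 101 FPKM in the former and to 143 and 133 FPKM in the latter, and those of the red cell lineage (4 of 6) to 308 and 128 and to 769 and 449. The part of these cells in the values below was not tested. Cyp2e1, a pericentral enzyme, was listed at 0 in both mice with an MSM mother and at 4876 and 6541 FPKM in the others, although its B6-allele frequency was given in all 4 mice (0.516 to 0.546). Of the 5 other pericentral markers, 4 were above in both mice with an MSM mother, as were 29.1% of genes whose mean FPKM was 50 or more. Oat, for example, had 974 and 871 FPKM against 499 and 674 FPKM.

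FPKM allows levels to be compared between genes, since it is per length. Pck1 and Fbp1 had the highest FPKM of the 8 genes and Pklr the lowest. Mean FPKM over the 4 mice was 1073 ± 694 (SD, n = 4) for Pck1, which ranked 71 of 8797 genes, and 924 ± 148 for Fbp1, which ranked 89. Khk followed with 537 ± 162. Pcx, Slc2a2 and Slc37a4 lay close together at 194 ± 15.6, 182 ± 14.6 and 165 ± 45.7, and G6pc had 99.9 ± 30.8. Pklr, at 56.8 ± 2.88, ranked 1335. Between neighbours in this order, the ranges over mice were separate only for Fbp1 above Khk and for Khk above Pcx. Slc37a4 was above G6pc in all 4 mice, although their ranges overlapped.

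**Figure D1:**
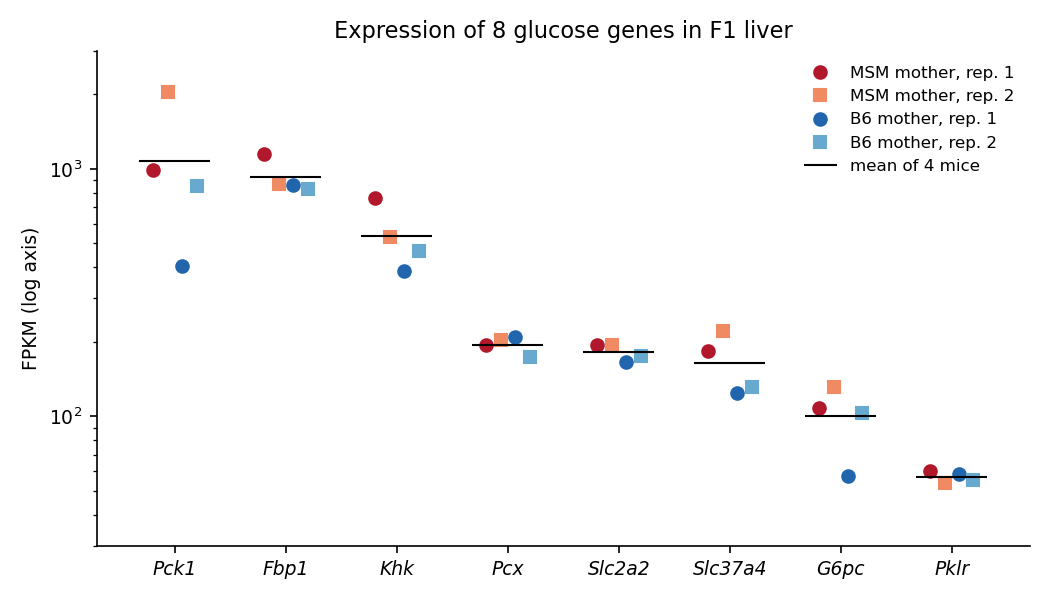
FPKM (log axis) of the 8 glucose genes in each of the 4 mice, with the mean as a black line. Pck1 spread from 405 to 2045 FPKM, whereas the points of Pklr lay between 53.8 and 59.9.

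The members varied between mice to unequal degrees. Pck1 was 5.04 times as high in its highest mouse as in its lowest, a ratio reached by 0.548% of all genes and by 0.893% of the 1466 genes whose mean FPKM was 50 or more. The ratio was 2.28 for G6pc, 1.97 for Khk, 1.78 for Slc37a4 and 1.38 for Fbp1. Pcx, Slc2a2 and Pklr had ratios of 1.20, 1.18 and 1.11, below the median of 1.29 over those 8764 genes.

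The glucose release genes all had their highest value in replicate 2 with an MSM mother and their lowest in replicate 1 of the reciprocal cross. G6pc (chr11:101367561-101377903), the catalytic subunit of glucose-6-phosphatase, had 108 and 131 FPKM in replicates 1 and 2 with an MSM mother and 57.4 and 103 FPKM with a B6 mother. The crosses did not overlap, but the lower MSM-mother mouse and the higher B6-mother mouse were close. Slc37a4 (chr9:44396852-44402968), the glucose 6-phosphate carrier, had 183 and 221 FPKM with an MSM mother and 124 and 131 FPKM with a B6 mother, with a wider gap between the crosses. Slc2a2 (chr3:28697903-28731359), the GLUT2 transporter of the hepatocyte surface, had 194 and 195 FPKM against 165 and 175 FPKM. A lower value in bulk tissue can stand for fewer cells of a type or for less RNA per cell, which cannot be told apart here. The G6pc to Slc37a4 ratio was 0.464 to 0.786. G6pc3, the more widely expressed relative of G6pc, had 3.62 to 4.62 FPKM.

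Of the genes of glucose production, Pck1 stood apart. Pck1 (chr2:173153048-173159273), the cytosolic phosphoenolpyruvate carboxykinase, had 990 and 2045 FPKM in replicates 1 and 2 with an MSM mother and 405 and 852 FPKM with a B6 mother. The replicates of a cross were far apart, and the lower MSM-mother mouse was close to the higher B6-mother mouse. Pcx (chr19:4510472-4621752), the mitochondrial pyruvate carboxylase, had 193 and 203 FPKM with an MSM mother and 208 and 173 FPKM with a B6 mother, and the crosses overlapped. Fbp1 (chr13:62864753-62888282), fructose bisphosphatase, had 1145 and 866 FPKM against 857 and 827 FPKM. A single mouse, replicate 1 with an MSM mother, was high for Fbp1, and the others were within a narrow range. That mouse also had the highest value in 900 of the 1466 genes whose mean FPKM was 50 or more. Pck1 divided by Pcx was therefore 1.94 to 10.1 between mice, and Pck1 divided by Fbp1 was 0.473 to 2.36.

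Pklr and Khk, which lead sugar toward pyruvate, went separate ways. Pklr (chr3:89136142-89146784), the liver pyruvate kinase, had 59.9 and 53.8 FPKM with an MSM mother and 58.5 and 55.1 FPKM with a B6 mother. Its mean was 56.8 FPKM in either cross, and 90.2% of the genes listed above 0 in every mouse varied at least as much. Khk (chr5:30921431-30931248), the ketohexokinase that phosphorylates fructose, had 764 and 530 FPKM with an MSM mother and 387 and 467 FPKM with a B6 mother. Khk was highest in replicate 1 with an MSM mother, as were 900 of the 1466 genes whose mean FPKM was 50 or more. The mouse with the most Pck1 was another. The ratio of Pck1 to Pklr, opposite steps at phosphoenolpyruvate, was 16.5 and 38.0 for MSM mothers, against 6.93 and 15.5 for B6 mothers.

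Comparing the crosses asks whether expression depended on which strain was the mother. No member passed the test (0 of 8 by limma on log2(FPKM + 1), at an adjusted p of 0.05 over all genes), and 0.0455% of all genes did. At an unadjusted p under 0.05, 2 of the 8 members and 780 of the 8797 genes were found. Pck1 had a log2 difference (MSM mother minus B6 mother) of 1.27 ± 0.47 (SE), with an adjusted p of 0.539 by limma. Slc37a4 had the lowest p of the members, with a log2 difference of 0.65 ± 0.16 and an adjusted p of 0.425 by limma. G6pc had 0.62 ± 0.29 and Khk 0.58 ± 0.24, with adjusted p of 0.58 and 0.561 by limma. Leaving out 1 mouse at a time moved the log2 difference of Pck1 to between 0.74 (without replicate 1 with a B6 mother) and 1.81 (without replicate 2), and that of G6pc to between 0.20 and 1.04 without the same mice. Khk ranged from 0.32 to 0.84 and Fbp1 from 0.04 to 0.44, without replicate 1 and replicate 2 with an MSM mother. The log2 differences of Fbp1 (0.24 ± 0.21), Slc2a2 (0.19 ± 0.14) and Pcx (0.06 ± 0.17) were near their errors or below them, and that of Pklr was 0.00 to 2 decimals with an SE of 0.14.

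The direction was shared by most members all the same. In 6 of the 8 genes, all but Pcx and Pklr, both mice with an MSM mother were above both with a B6 mother, a pattern found in 23% of all genes and in 29.1% of genes whose mean FPKM was 50 or more. Of the genes whose mean FPKM was 50 or more, which include the members, 11.3% had the reverse pattern. The median log2 difference was 0.41 over the 8 members and 0.02 over all genes, most of which had a lower FPKM than the members. After quantile normalization the log2 difference was 1.10 for Pck1, 0.11 for Fbp1 and 0.07 for Slc2a2, each lower than before. The summed hepatocyte markers given above were also higher in both mice with an MSM mother, and their part in these differences was not tested. An exact permutation test of 2 mice against 2 cannot give a two-sided p below 0.33.

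**Figure D2:**
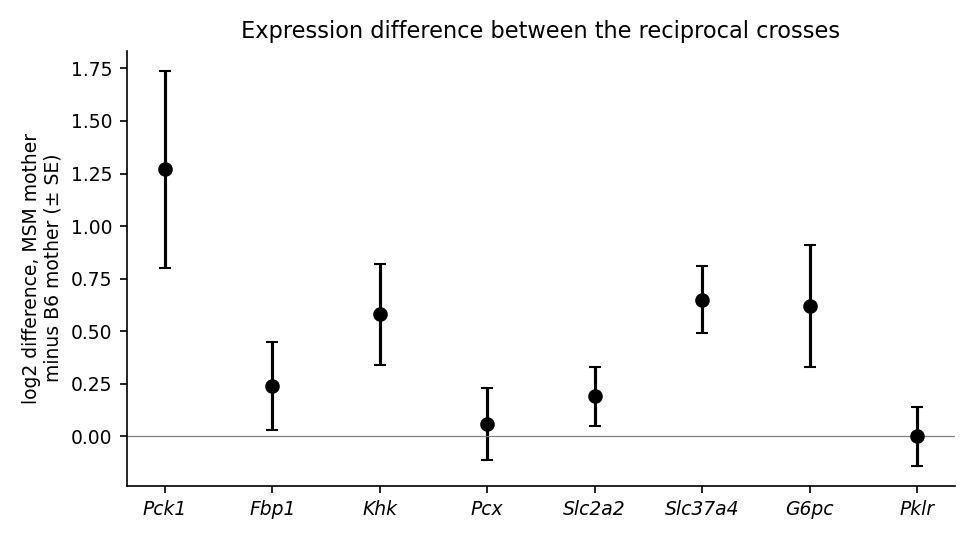
Log2 difference in FPKM between the crosses (MSM mother minus B6 mother) for the 8 glucose genes, as points with the SE from limma. Pck1 had the largest difference, 1.27 with an SE of 0.47, and none of the 8 passed the test.

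Mice of the same cross also differed. Pck1, G6pc, Slc37a4 and Slc2a2 were all highest in replicate 2 with an MSM mother and lowest in replicate 1 with a B6 mother, which 8.31% of all genes were. The likeness was looked for over all genes, as the distance between log2(FPKM + 1) profiles centred on their means over the 4 mice. Nearest to Pck1 were Per1, Tsku and 1810055G02Rik, at distances of 0.23, 0.26 and 0.27. Per1, a gene of the circadian clock, had 5.17 and 14.3 FPKM with an MSM mother and 1.90 and 5.53 FPKM with a B6 mother. Of 11 clock genes analysed, 3 (27.3%) had the same highest and lowest mouse as Pck1, against 8.31% of all genes. Tef, with 40.3, 60.9, 35.0 and 55.7 FPKM in the order given for Per1, shared those mice. Nr1d1, with 37.7, 21.5, 66.7 and 48.2 FPKM, had them reversed. Tsku, which encodes a secreted protein, had 12.7, 34.1, 4.52 and 12.0 FPKM in the same order. G6pc was 47th in this order and Slc37a4 was 103rd, of all genes. Nearest to G6pc were Apoa5, Rbm3 and Hamp2, at distances of 0.15, 0.18 and 0.19. Apoa5, an apolipoprotein of triglyceride metabolism, had 661, 805, 398 and 627 FPKM, so that it shared with G6pc the low value in replicate 1 with a B6 mother.

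Genes known to rise in fasting were laid beside the members, since the feeding state is not given. Of this list, 13 of 15 genes were analysed. Of the 13, 6 had the same highest and lowest mouse as Pck1, against 8.31% of all genes. Tat, an enzyme of tyrosine breakdown under glucocorticoid control, had 749 and 1424 FPKM with an MSM mother and 403 and 625 FPKM with a B6 mother. The ratio of Pck1 to Tat was only 1.01 to 1.44 between mice. Sds, which makes pyruvate from serine, had 352, 583, 214 and 278 FPKM, and Igfbp1, a binding protein lowered by insulin, had 40.8, 48.3, 12.9 and 36.3 FPKM. Angptl4 had 127, 139, 46.9 and 90.7 FPKM in that order, again lowest in the mouse with the least Pck1. Lpin1, a phosphatidate phosphatase and coactivator, had 196 FPKM in replicate 2 with an MSM mother and 16.6 to 31.2 FPKM in the other three.

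Other fasting genes did not share the pattern. Cyp4a10, a fatty acid hydroxylase, had 674 to 896 FPKM, with its highest value in replicate 1 with an MSM mother. Irs2, an insulin receptor substrate, had 2.54 and 2.56 FPKM with an MSM mother and 7.60 and 7.03 FPKM with a B6 mother, opposite to Pck1, with a log2 difference of -1.23 ± 0.11 (SE) and an adjusted p of 0.0826 by limma. Of genes known to rise after feeding, 11 of 12 were analysed, Pklr among them, and both mice with an MSM mother were below both with a B6 mother in 6 of the 11, a pattern found in 19.4% of all genes. Srebf1, a regulator of lipogenesis, had 33.4 and 52.5 FPKM against 80.0 and 100 FPKM, and Fasn, the fatty acid synthase, had 22.3 and 30.9 FPKM against 48.7 and 38.1 FPKM. Scd1, a lipogenic desaturase, went the other way, at 1274 and 755 FPKM against 649 and 564 FPKM. So did Thrsp, a nuclear protein of lipogenesis, with 126 and 204 FPKM against 55.6 and 84.5 FPKM, a log2 difference of 1.22 ± 0.30 (SE, adjusted p of 0.412 by limma) and the same highest and lowest mouse as Pck1. None of these fasting and feeding genes passed the test between the crosses. Their part in the values of the members was not tested.

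**Figure D3:**
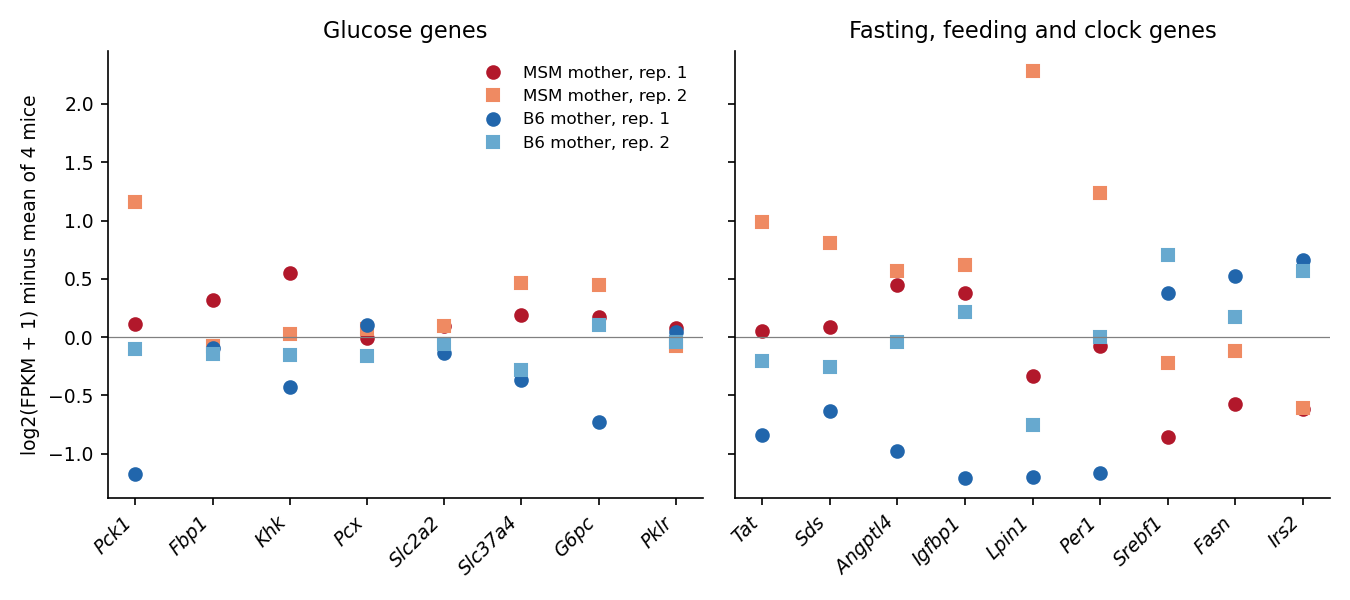
Deviation of log2(FPKM + 1) from the mean of the 4 mice, for the 8 glucose genes (left). The genes on the right, chosen after their values were seen, are of fasting and feeding, with Per1 as the only clock gene. Each symbol is a mouse. Pck1, G6pc, Tat, Sds, Igfbp1 and Per1 were highest in replicate 2 with an MSM mother and lowest in replicate 1 with a B6 mother.

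The B6-allele frequency asks whether the alleles were used equally within a mouse. The crosses are given below in the order MSM mother x B6 father, then B6 mother x MSM father. Pck1 was B6-shifted in all 4 mice, with frequencies of 0.586 and 0.566 in replicates 1 and 2 of the former cross and 0.583 in both replicates of the latter. Its mean of the crosses was 0.580 ± 0.00923 (SD, n = 4), and its log2 odds of the B6 allele, 0.46 ± 0.05 (SE), differed from equal use (adjusted p of 0.0108 by limma). Such a call toward B6 was made for 22.6% of the genes with a frequency and toward MSM for 13.6%. Leaving out any 1 mouse ended the Pck1 call, with adjusted p of 0.0511 to 0.0825 by limma. G6pc lay slightly on the MSM side in every mouse, at 0.472 and 0.446 for MSM mothers against 0.474 and 0.476 for B6 mothers. Its log2 odds of -0.19 ± 0.05 (SE) missed the threshold, with an adjusted p of 0.0651 by limma. With genes limited to a mean FPKM of 10 or more, its adjusted p was 0.0447 by limma. Pck1 and G6pc were the members on a single side of 0.5 in all 4 mice, as were 56.6% of the genes with a frequency.

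Khk and Slc2a2 gave frequencies that scattered between mice. Khk had 0.429 and 0.667 for MSM mothers against 0.429 and 0.75 for B6 mothers, and replicate 2 was the higher in either cross. Slc2a2 had 0.667 and 1 for MSM mothers against 0.25 and 0.5 for B6 mothers. Neither passed the test for imbalance, with log2 odds of 0.44 ± 0.48 and 1.51 ± 1.13 (SE) and adjusted p of 0.509 and 0.36 by limma. These genes lie within the first 100 Mb of their chromosomes, where only 96 of 4849 genes (1.98%) had a frequency and the median range of a frequency over the 4 mice was 0.646. Beyond 100 Mb (10 Mb on chromosomes 16 to 19), where Pck1 and G6pc lie, 3527 of 3929 genes (89.8%) had a frequency and the median range was 0.0592. Pck1 and G6pc had ranges of 0.02 and 0.0297. The frequencies of Khk and Slc2a2 therefore cannot be read with the precision of those of Pck1 and G6pc. Fbp1, Pcx, Pklr and Slc37a4, which lie on the same side of this coordinate as Khk and Slc2a2, were given without a frequency.

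Between the crosses, a parent-of-origin difference would show as a difference in frequency. By limma, 0 of the 4 members passed this test, whereas 0.0826% of the genes with a frequency did, and the unadjusted p was under 0.05 for 0 of the 4 and for 190 of the 3632 genes. The difference in log2 odds (MSM mother minus B6 mother) was -0.04 ± 0.09 (SE) for Pck1 and -0.09 ± 0.10 for G6pc. For Slc2a2 it was 4.61 ± 2.27, with an adjusted p of 0.873 by limma. With allele bias set at a mean of the crosses of 0.8 or more (B6) or 0.2 or less (MSM), 0 of the 4 members were allele-biased and 3.19% of the genes with a frequency were.

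**Figure D4:**
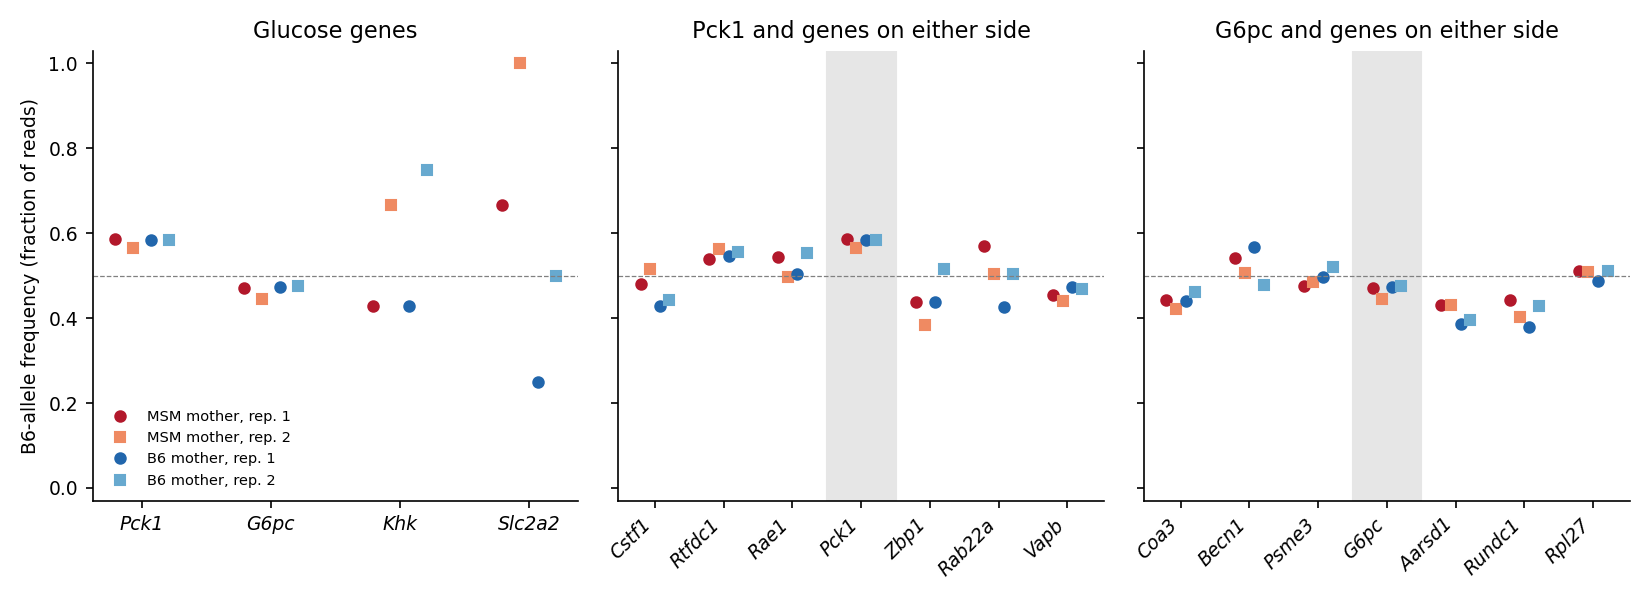
B6-allele frequency in each mouse of the 4 glucose genes that had one (left), and of Pck1 (centre) and G6pc (right) with 3 genes on either side along the chromosome, the dashed line marking equal use. Pck1 lay between 0.566 and 0.586 and G6pc between 0.446 and 0.476, whereas Slc2a2 spread from 0.25 to 1.

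The near-constant frequency of Pck1 stood against its wide range of expression. Multiplying FPKM by the frequency gives the share of each allele, if reads without an informative base divide in the same way. The B6 part of Pck1 was 580 and 1157 FPKM with an MSM mother and 236 and 497 FPKM with a B6 mother. Its MSM part was 410, 888, 169 and 355 FPKM in the same order, so the highest mouse was 4.89 times the lowest for the B6 part and 5.25 times for the MSM part. For G6pc, the B6 part was 50.9, 58.5, 27.2 and 49.1 FPKM and the MSM part 56.9, 72.6, 30.2 and 54.1 FPKM, with ratios of 2.15 and 2.40. In both genes the parts of the alleles rose and fell in the same mice, as they must where the frequency hardly varies. These parts therefore restate the FPKM and the frequency and are not a separate measure.

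The genes beside Pck1 and G6pc did not all lean the same way. Upstream of Pck1, Rtfdc1 was called toward B6 at a mean frequency of 0.552, while Rae1 had 0.525 and Cstf1 had 0.467 without a call. Downstream, Zbp1, a sensor of Z-form nucleic acids, had 0.444, Rab22a had 0.501, and Vapb, an endoplasmic reticulum protein, was called toward MSM at 0.459. Pck1 thus had the highest mean frequency of these 7 genes. Around G6pc, 3 of the 6 neighbours were called toward MSM: Coa3 at 0.442, Aarsd1 at 0.411 and Rundc1 at 0.414. Becn1, an autophagy gene, had 0.524, Psme3 had 0.495 and Rpl27, a ribosomal protein gene, had 0.505, all without a call. The nearest genes with a frequency around Khk and Slc2a2 lay up to 58496 kb away, and their frequencies ranged from 0 to 1.

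Beyond the 8 members, 10 lists of pathway genes held 166 genes, of which 127 were analysed. None of the 127 passed the test between the crosses by limma, and 15 had an unadjusted p under 0.05. Their median log2 difference was 0.02, as over all genes. Among the 8 enzymes of the steps shared by glycolysis and glucose production, 5 were above in both mice with an MSM mother. This pattern was found in 29.1% of genes whose mean FPKM was 50 or more. One of the 5 was Gapdh, the glyceraldehyde phosphate dehydrogenase, at 1104 and 793 FPKM against 710 and 747 FPKM. Among 21 other genes of glucose production, 17 had a log2 difference above 0, against 54.1% of all genes. In 6 of the 21, both mice with an MSM mother were above both others. That pattern was found in 23% of all genes and 29.1% of those whose mean FPKM was 50 or more. Sds had a log2 difference of 0.89 ± 0.28 (SE) and an adjusted p of 0.492 by limma. Among 22 hormone receptors and signalling genes, 6 had a log2 difference above 0. In 9 of them both mice with an MSM mother were below both others (19.4% of all genes). Gcgr, the glucagon receptor, differed little, with 134 to 153 FPKM. Among 25 transcription factors and coactivators, Cebpb, a factor that binds the Pck1 promoter, had 46.8 and 36.5 FPKM with an MSM mother and 11 and 19.9 FPKM with a B6 mother, with a log2 difference of 1.42 ± 0.28 (SE) and an adjusted p of 0.34 by limma. Foxo1, a forkhead factor restrained by insulin, had 18.3 FPKM in replicate 2 with an MSM mother, the mouse highest in Pck1 and G6pc. It had 7.94 FPKM in replicate 1 with an MSM mother, and 8.86 and 9.27 FPKM with a B6 mother. Of the 25 factors and coactivators, 11 were highest in replicate 2 with an MSM mother, as were 1895 of all 8797 genes.

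Allelic imbalance was called in the pathway about as often as elsewhere. Of 64 pathway genes with a frequency, 24 were called by limma, 15 toward B6 and 9 toward MSM, against 36.2% of all genes with a frequency, and the median size of the log2 odds was 0.25, against 0.24 over all genes. All 24 called genes lay on the side of the coordinate where Pck1 and G6pc lie, as did 59 of the 64 pathway genes with a frequency. The mean frequency was within 0.4 to 0.6 in 14 of the called genes. Among them, Slc37a1, a sugar-phosphate exchanger related to Slc37a4, leaned most to the MSM allele, at 0.193 and 0.2 for MSM mothers against 0.127 and 0.0991 for B6 mothers. Its log2 odds were -2.51 ± 0.09 (SE), with an adjusted p of 0.00245 by limma, and its level was low, at 1.53 to 4.16 FPKM. Among the called genes, Cebpb leaned most to B6, at 0.819, 0.790, 0.843 and 0.779, with log2 odds of 2.08 ± 0.13 (SE) and an adjusted p of 0.00537 by limma.

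The other calls were spread over the lists. In the shared steps, Gapdh was called toward MSM (frequencies of 0.370 to 0.398) and Tpi1, triosephosphate isomerase, toward B6 (0.541 to 0.582). In fructose and polyol metabolism, 3 of 7 were called and all toward B6: Sord, which makes fructose from sorbitol, with log2 odds of 0.62, Dak, a triose kinase, with 0.61, and Adh1 with 0.58. Among glucose production genes, Slc25a10, the dicarboxylate carrier (0.75), Gls2, liver glutaminase (0.40), and Mdh2, mitochondrial malate dehydrogenase (0.29), were called toward B6, and Sds (-0.45) and Slc16a1, a lactate carrier (-0.25), toward MSM. In glycogen metabolism, Ppp1r3c, which targets a phosphatase to glycogen (0.86), Gaa (0.52) and Gbe1, the branching enzyme (0.41), were called toward B6. Of the receptors and regulators, Trib3, an inhibitor of AKT (-0.73) and Gcgr (-0.33) were called toward MSM and Tcf7l2 (0.60), Prkacb (0.34), Kat2a (0.25) and Hnf4a (0.24) toward B6. Pfkfb1, which sets the level of fructose 2,6-bisphosphate and lies on the X chromosome, was called toward MSM with frequencies of 0.252, 0.404, 0.199 and 0.192. Pgk1 and Pdha1, also X-linked, were likewise highest in replicate 2 with an MSM mother, at 0.506 and 0.554, and had 0.227 to 0.314 in the other mice. A shift along the X chromosome and a shift of Pfkfb1 alone cannot be told apart here.

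**Figure D5:**
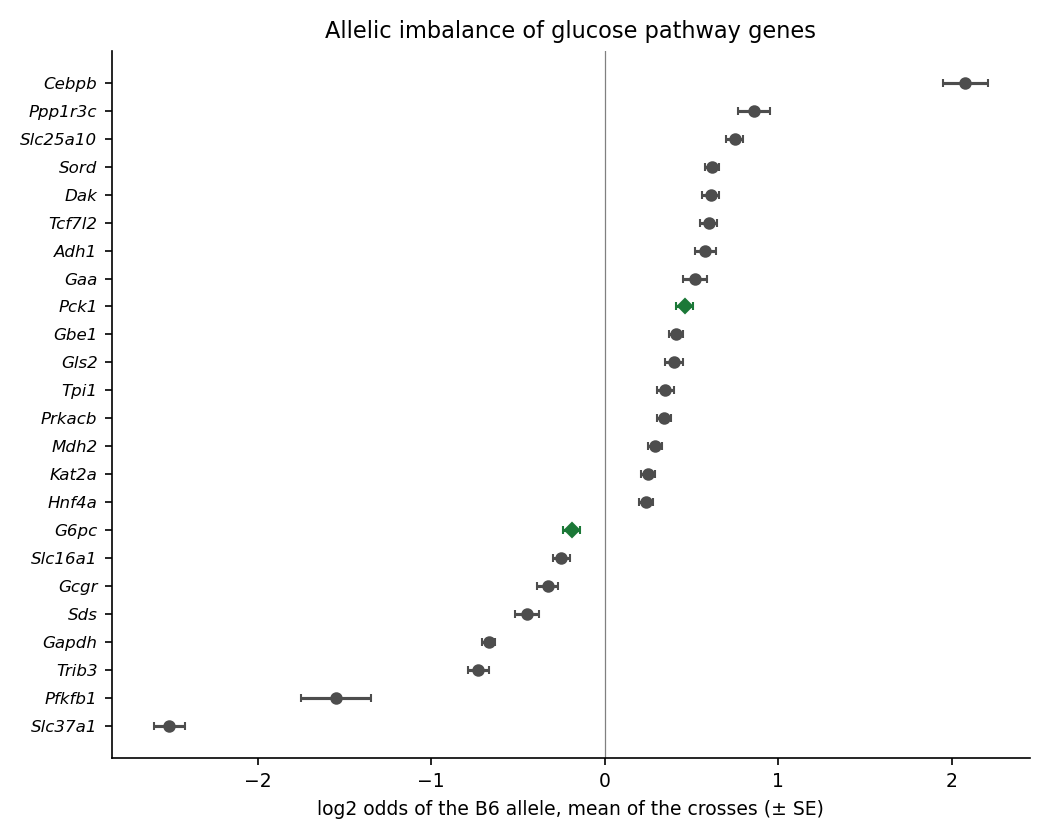
Log2 odds of the B6 allele, as the mean of the crosses with the SE from limma, for Pck1 and G6pc (green diamonds) and for 22 of the 24 pathway genes called for imbalance (grey circles). Pck1, at 0.46, lay in the middle of the shifts toward B6, and G6pc, at -0.19, did not pass the test.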

How the data were processed

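Liver mRNA of 4 mice was sequenced by the authors with a strand-specific protocol. After trimming (Trim Galore!) they used Tophat2 for alignment to a mm10 reference with SNP sites masked, and deposited an FPKM value per gene. They also separated the reads by allele (SNPsplit), counted them per gene and deposited the B6-allele frequency as a fraction. Versions are not given in the sources used here. The deposited FPKM and fraction values were used as they stand. Crosses were taken from the labels.

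Expression was tested with limma 3.58.1 (R 4.3.3), with a variance trend, on log2(FPKM + 1), which understates the change of low genes. Frequencies were limited to 0.01 to 0.99 and tested as log2 odds, the mean of the crosses against 0 and the crosses against each other. Tests were two-sided, fitted over all genes with Benjamini-Hochberg adjustment at 0.05, and tried on simulated data. Nothing in the labels says whether the mice of a cross were littermates, so p-values measure the spread between these mice. Positions came from GENCODE M21 (mm10) for 8434 genes and RefSeq for 344, and 19 genes had none. Slc2a2, Pklr and Pcx overlap genes of the opposite strand.

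The members and lists were chosen with earlier results of these data known. Named were all members, the called pathway genes (at most 5 per list) and the 3 highest of each list where they bear on a member, 3 neighbours on each side, 3 nearest profiles, and the 2 highest genes of marker and state lists. Other genes named (Igfbp1, Angptl4, Lpin1, Irs2, Tat, Sds, Srebf1, Fasn, Foxo1, G6pc3, Oat, Thrsp, Pgk1, Pdha1, Cyp2e1) were chosen after their values were seen. Figures used matplotlib 3.10.9. Some genes that this rule covers are not reported here.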

Additional observations from a re-analysis of the deposited data

Results flagged for a closer look

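Gnas, the stimulatory G protein subunit through which the glucagon receptor acts, had B6-allele frequencies of 0.389 and 0.407 for MSM mothers against 0.557 and 0.594 for B6 mothers. Its mean frequency differed by -0.177 (MSM mother minus B6 mother), every mouse of one cross being below 0.5 and every mouse of the other above it. Only the members and the highest or called genes of the pathway lists were screened for this pattern. Its share over all genes was not counted. The difference in log2 odds was -1.03 ± 0.12 (SE), which missed the threshold over all genes (adjusted p of 0.601 by limma), so Gnas was looked at only because the crosses lay on opposite sides of equal use. Gnas had 221 to 269 FPKM.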

How the results depend on the processing

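The files hold 2 mice per cross and no reads per allele, so the precision of a single value is unknown. Equal replicate numbers share only a number, and the deviations of same-numbered mice correlated at 0.0038 (expression) and 0.147 (log2 odds). A replicate block raised the genes called between the crosses from 0 to 133 (higher with an MSM mother) and from 4 to 152 (higher with a B6 mother) and the members called from 0 to 1 (Pck1, adjusted p of 0.00773 by limma). It lowered the imbalance calls from 822 to 481 (B6) and from 494 to 294 (MSM), and the frequency calls higher with an MSM mother from 1 to 0. Leaving out each mouse gave 5 to 9 and 5 to 17 expression calls, 108 to 315 and 73 to 199 imbalance calls, 0 to 1 and 0 to 5 frequency calls, and 0 members called for imbalance. A mean FPKM of at least 10 gave 521 and 329 imbalance calls and 0 frequency calls higher with a B6 mother (2 before), as did wider limits on the frequency, and the frequency itself gave 2 calls higher with an MSM mother. The members called for imbalance were 2, G6pc with Pck1, for a mean FPKM of at least 10, a variance trend, or each mouse shifted to a median log2 odds of 0. Thresholds of 0.9 and 0.1 left 30 and 30 allele-biased genes and 0.7 and 0.3 gave 138 and 103, against 67 and 49. Values that reversed were small beside their errors and uncalled: the log2 difference of Pcx was -0.058 after quantile normalization and -0.073 to 0.19 with a mouse left out, that of Pklr -0.077 to 0.077, the log2 odds of Khk -0.061 to 0.94, and the difference in log2 odds -0.10 to 0.016 for Pck1 and -1.29 to 0.71 for Khk. The other members kept their direction under every alternative run.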
